A study of Mus musculus with 7 samples.

Results

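Interferon-stimulated genes are the genes that cells switch on when an interferon reaches them. The 42 genes described here were taken by name from a list of well-known members. The list itself uses no measured value, but it was drawn up with earlier results of these data known, so the counts given here are descriptions of these genes and not independent evidence. All 42 were found among the 55423 features of the count table, and all 42 had enough reads to be tested.

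Type I interferons bind the receptor IFNAR and type II interferon binds IFNGR, and both receptors signal through JAK kinases to STAT proteins. STAT2 and IRF9 are part of the complex ISGF3, which binds a DNA element called the interferon-stimulated response element (ISRE), and interferon gamma acts mainly through another element, the gamma-activated site (GAS). The genes that follow encode proteins that block viruses, sense foreign nucleic acid, mark proteins with ISG15 and raise the level of the pathway's own transcription factors, and in skin they are made by keratinocytes as well as by infiltrating leukocytes.

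The RNA came from cutaneous squamous cell carcinomas (cSCC) of mice on a C57BL/6J background. Every mouse carried a tamoxifen-inducible Cre recombinase under the involucrin promoter (Ivl), which is active in IVL+ epidermal cells, and a Cre-activated BRAFV600E allele, and tamoxifen was put on the skin at 7 to 10 weeks of age per the labels. The first group, Ivl:BRAFV600E, had no added SOX2 allele, and 2 of its 3 mice carried a tdRFP reporter at Rosa26. The second group, Ivl:BRAFV600E-SOX2LSL, carried in addition a Rosa26 allele from which Cre releases SOX2 and eGFP. There were 3 tumours in each group, taken at clinical endpoint, and they are called BRAFV600E and SOX2LSL tumours 1 to 3 below. The first group held 2 females and 1 male, and the second 1 female and 2 males. Every SOX2LSL tumour was collected sooner after induction than every BRAFV600E tumour, so time since induction and genotype cannot be told apart. Each tumour came from 1 mouse, and the whole tumour was sequenced, so fewer cells of a type and less RNA per cell cannot be told apart.

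Between 23565432 and 31152826 reads were counted on genes per tumour. Levels are given as CPM, read counts scaled to a common library size and corrected for composition by TMM, and 3 counts, taken as the lowest level that can be told from 0, came to between 0.0839 and 0.143 CPM (counting error only). Sox2 was between 0.238 and 0.716 CPM in BRAFV600E tumours and between 155 and 182 CPM in SOX2LSL tumours, higher where the labels give the added allele. The paper reported SOX2 expression in Ivl:BRAFV600E tumours too. SOX2LSL tumour 1 stood apart in the genes described here, and the counts over the 42 genes by edgeR and by overlap are given with and without it. It was the highest of the 6 tumours in 35 of 42 members (83.3%) and the lowest in 0, while it was the highest in 28.6% of all genes tested.

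To show what these genes carry at their starts, the promoters (250 bases before to 50 after the annotated start, RefSeq, GRCm38.p6) were searched on both strands for the letters GAAANNGAAA, the core of an ISRE, and TTCNNNGAA, the core of a GAS. Matches to these letters may overlap one another. Promoters were found for 32 of 42 members, and 19 of them (59.4%) held the ISRE letters, against 3.49% of the 27025 promoters in the table. The GAS letters were in 8 of the 32 (25.0%), against 8.47% of all promoters, 5 members held both and 10 held neither. A match describes the sequence and does not show that a factor binds there. The members printed next were picked to show Ifitm3 and Stat2, which were called, beside members of some of the roles. Each line is read 5′ to 3′ on the gene's strand, with 30 bases around the match that lies farthest upstream, and the capitals mark that match (on the other strand it reads TTTCNNTTTC).
Ifitm3, chr7:141010723-141010752, minus strand: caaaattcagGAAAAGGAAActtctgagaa
Stat2, chr10:128270266-128270295, plus strand: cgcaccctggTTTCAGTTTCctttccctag
Ifitm2, chr7:140955988-140956017, minus strand: ccaccaacagGAAAAGGAAAttgctagaga
Irgm1, chr11:48871431-48871460, minus strand: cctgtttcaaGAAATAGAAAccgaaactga
Ifit1, chr19:34640775-34640804, plus strand: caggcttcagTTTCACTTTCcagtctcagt
Ifit3, chr19:34583363-34583392, plus strand: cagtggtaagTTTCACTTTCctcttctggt
Ifit3b, chr19:34607759-34607788, plus strand: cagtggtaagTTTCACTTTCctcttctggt
Bst2, chr8:71537583-71537612, minus strand: ggcattccagGAAAATGAAActgaaaggct
Rsad2, chr12:26456553-26456582, minus strand: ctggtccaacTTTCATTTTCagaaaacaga
The Ifitm3 and Ifitm2 matches share the same 10 letters, GAAAAGGAAA, which lie 2 bases past the annotated start, in the first exon, in Ifitm3 and before the start in Ifitm2. The 30 bases of Ifit3 and Ifit3b are identical. No match was found in the window of Ifitm1.

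In several members, Isg15 and Oas1a among them, matches to the ISRE letters overlap, and the 100 bases before the start are printed for both with all matches in capitals, overlapping ones running together. In Oas1a the first capital stretch is the GAS match.
Isg15, chr4:156200819-156200918, minus strand: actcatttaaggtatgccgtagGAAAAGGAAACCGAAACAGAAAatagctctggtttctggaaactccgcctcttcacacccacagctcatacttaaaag
Oas1a, chr5:120907526-120907625, minus strand: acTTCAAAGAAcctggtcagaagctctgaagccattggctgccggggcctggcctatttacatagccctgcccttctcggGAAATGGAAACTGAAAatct
The medians of the log2 fold change between the groups, described in the next paragraphs, were close, at 0.96 in the 19 members with the ISRE letters (2 called) and 1.03 in the 13 without (1 called).

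The comparison of the groups asks whether tumours with the Rosa26 SOX2 allele besides BRAFV600E differ in these genes from tumours without that allele. A log2 fold change is SOX2LSL over BRAFV600E, and a gene was called when the adjusted p of edgeR's quasi-likelihood test, over all 24433 genes tested, was below 0.05. Of the 42 members, 3 were called higher in SOX2LSL tumours, Ifitm3, Ifitm1 and Stat2 (7.14% of members, against 2.39% of all genes tested), and 0 were called lower (1.51% of all genes, and 3.90% for both directions). At an unadjusted p below 0.05 there were 19 higher (45.2%, against 14.5% of all genes) and 0 lower (11.2% of all genes). The groups did not overlap in 19 members, all of them higher (45.2%, against 18.2% of all genes). The log2 fold change was above 0 in 40 of 42 (95.2%, against 52.8%) and below 0 in Ifit2 and Rsad2, and the median over the members was 0.99, where the median of all genes was 0.04. DESeq2, which made more calls in all, called 11 members higher (26.8% of the members that it gave an adjusted p, against 10.5% of all genes) and 0 lower (7.76% of all genes).

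Without SOX2LSL tumour 1, edgeR called 4 members higher, Ifitm1, Ifitm3, Parp14 and Stat2 (3.59% of all genes in that fit), and 13 had an unadjusted p below 0.05 (12.5% of all genes). The median log2 fold change was then 0.60 and 36 of 42 members stayed above 0. The groups did not overlap in 19 members that were higher (22.8% of all genes) and in 2, Bst2 and Ifit2, that were lower (19.9% of all genes). Leaving out BRAFV600E tumour 1 or tumour 2 left 0 members called by edgeR, in fits that called 0.0501% and 0.136% of all genes higher. Ifitm3 was the 1 member called without BRAFV600E tumour 3 (0.515% of all genes higher) or SOX2LSL tumour 2 (0.574%), and Ifitm3 and Stat2 were called without SOX2LSL tumour 3 (1.24%).

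**Figure D1:**
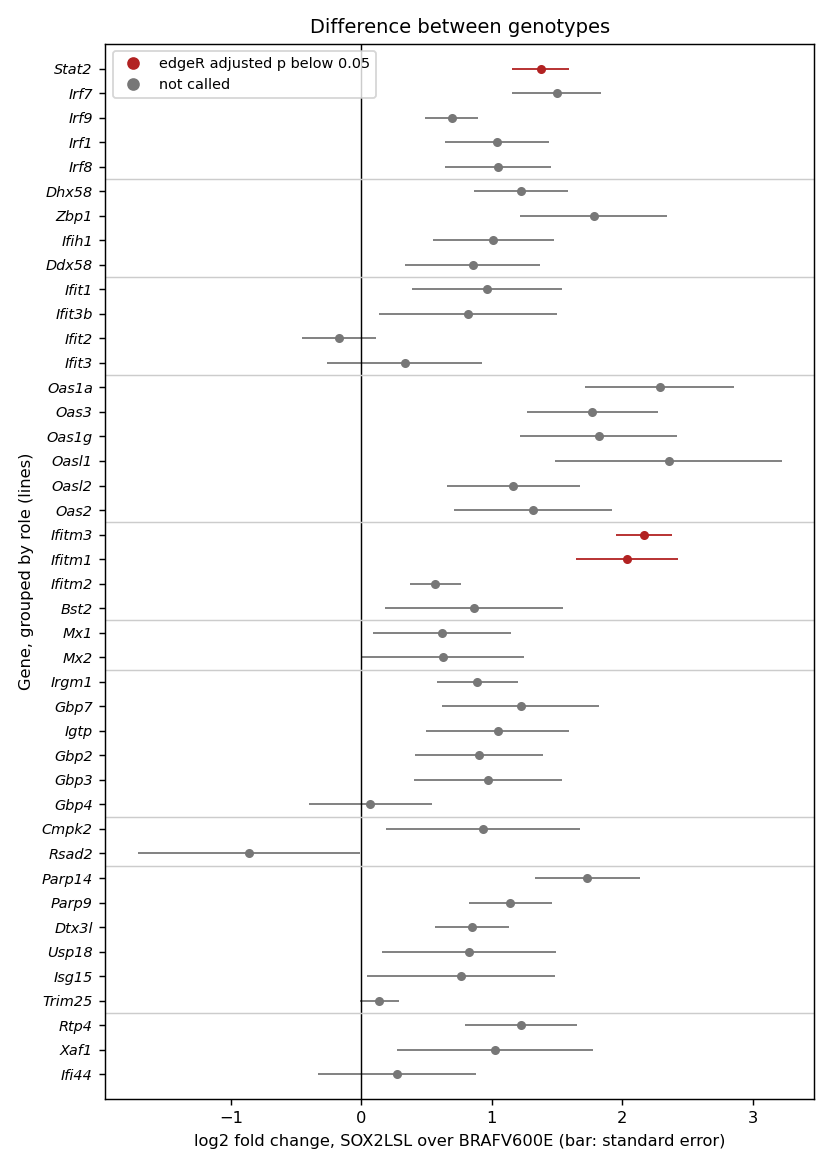
Log2 fold change of each of the 42 genes, SOX2LSL over BRAFV600E (x axis), with genes grouped by role (y axis); points are edgeR estimates from 3 tumours per group, bars are standard errors, and red marks an adjusted p below 0.05. The 3 red points, Stat2, Ifitm3 and Ifitm1, lie between 1.37 and 2.17, and 40 of 42 points lie above 0.

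The transcription factors of the pathway were higher in SOX2LSL tumours in the mean, and 1 of them was called. In all 5 (Stat2, Irf7, Irf9, Irf1, Irf8) the unadjusted p was below 0.05, and in 4 of them the groups did not overlap. Over all genes tested, 2.39% were called higher, 14.5% were higher at that p and 18.2% were higher without overlap. Their median log2 fold change was 1.05. Stat2 (ENSMUSG00000040033, chromosome 10, 128270559 to 128292849, plus strand), the subunit that makes ISGF3 specific to type I and III interferon, had 4.74, 4.57 and 6.51 CPM in BRAFV600E tumours and 16.0, 13.4 and 11.6 CPM in SOX2LSL tumours. Every SOX2LSL tumour was above every BRAFV600E tumour, with means of 5.27 ± 1.07 and 13.7 ± 2.18 CPM (SD, n = 3 each). The log2 fold change was 1.37 (SE 0.22, edgeR adjusted p = 0.0278), with a range of 1.25 to 1.55 over the 6 fits that each omitted 1 tumour, and Stat2 kept its call in 2 of these.

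Irf7, the factor that amplifies type I interferon production, was flat in BRAFV600E tumours at 1.53, 1.52 and 1.43 CPM and was 6.24, 3.01 and 3.43 CPM in SOX2LSL tumours. Its groups did not overlap, and the log2 fold change was 1.50 (SE 0.34, edgeR adjusted p = 0.057; DESeq2 adjusted p = 0.00274). This gene, Isg15 and Rsad2 are given in full because of their place in the pathway and were chosen after their values were seen. Irf9, the DNA-binding subunit of ISGF3, had a log2 fold change of 0.69 (edgeR adjusted p = 0.0957). Irf1, the main factor downstream of interferon gamma, and Irf8, a factor of myeloid cells that interferon gamma also induces, had 1.04 and 1.05 (adjusted p = 0.163 for both). Irf1 was highest in SOX2LSL tumour 1, with 16.5 CPM, against 5.96 and 7.40 CPM in the other SOX2LSL tumours.

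The interferon-induced membrane proteins held Ifitm3, the member with the smallest p of all 42. Ifitm3 (ENSMUSG00000025492, chromosome 7, 141009586 to 141010770, minus strand) encodes a membrane protein that blocks the fusion of viruses with endosomes. It had 24.6, 23.7 and 33.0 CPM in BRAFV600E tumours and 149, 96.0 and 120 CPM in SOX2LSL tumours. The groups were far apart, with means of 27.1 ± 5.15 and 122 ± 26.5 CPM (SD, n = 3 each) and a ratio of 4.49. The log2 fold change was 2.17 (SE 0.21, edgeR adjusted p = 0.00926), with a range of 1.99 to 2.33 over the omissions of 1 tumour, and the call was kept in 4 of the 6.

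Ifitm1 (ENSMUSG00000025491, chromosome 7, 140967221 to 140969825, plus strand), whose product acts at the cell surface, lies in the same cluster. It had 1.40, 3.37 and 3.56 CPM in BRAFV600E tumours and 11.4, 8.42 and 14.2 CPM in SOX2LSL tumours, with no overlap. It differed by a log2 fold change of 2.03 (SE 0.39, edgeR adjusted p = 0.041), and the call was kept in 1 of the 6 omissions of a tumour and lost with sex as a covariate (edgeR adjusted p = 0.0929). Neither Ifitm3 nor Ifitm1 shared a stretch of 100 bases with another gene.

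Ifitm2, the neighbour between 140954837 and 140955987 on the minus strand, had 15.6, 20.6 and 15.6 CPM in BRAFV600E tumours and 24.1, 21.7 and 31.0 CPM in SOX2LSL tumours. The groups did not overlap, but the lowest SOX2LSL tumour was close to the highest BRAFV600E tumour, and the log2 fold change of 0.57 (SE 0.19) was not called (edgeR adjusted p = 0.128). Of the 100-base stretches of its transcripts, 34.9% also occur in other annotated genes, so its count is uncertain.

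Bst2, the gene of tetherin, which holds budding virus at the cell surface, was high in 1 tumour. It had 2.11, 2.03 and 2.23 CPM in BRAFV600E tumours and 8.42, 1.91 and 1.23 CPM in SOX2LSL tumours. SOX2LSL tumour 1 was above, and the other SOX2LSL tumours were below, every BRAFV600E tumour. Its log2 fold change was 0.86 (SE 0.68, edgeR adjusted p = 0.458) and became -0.44 without SOX2LSL tumour 1.

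**Figure D2:**
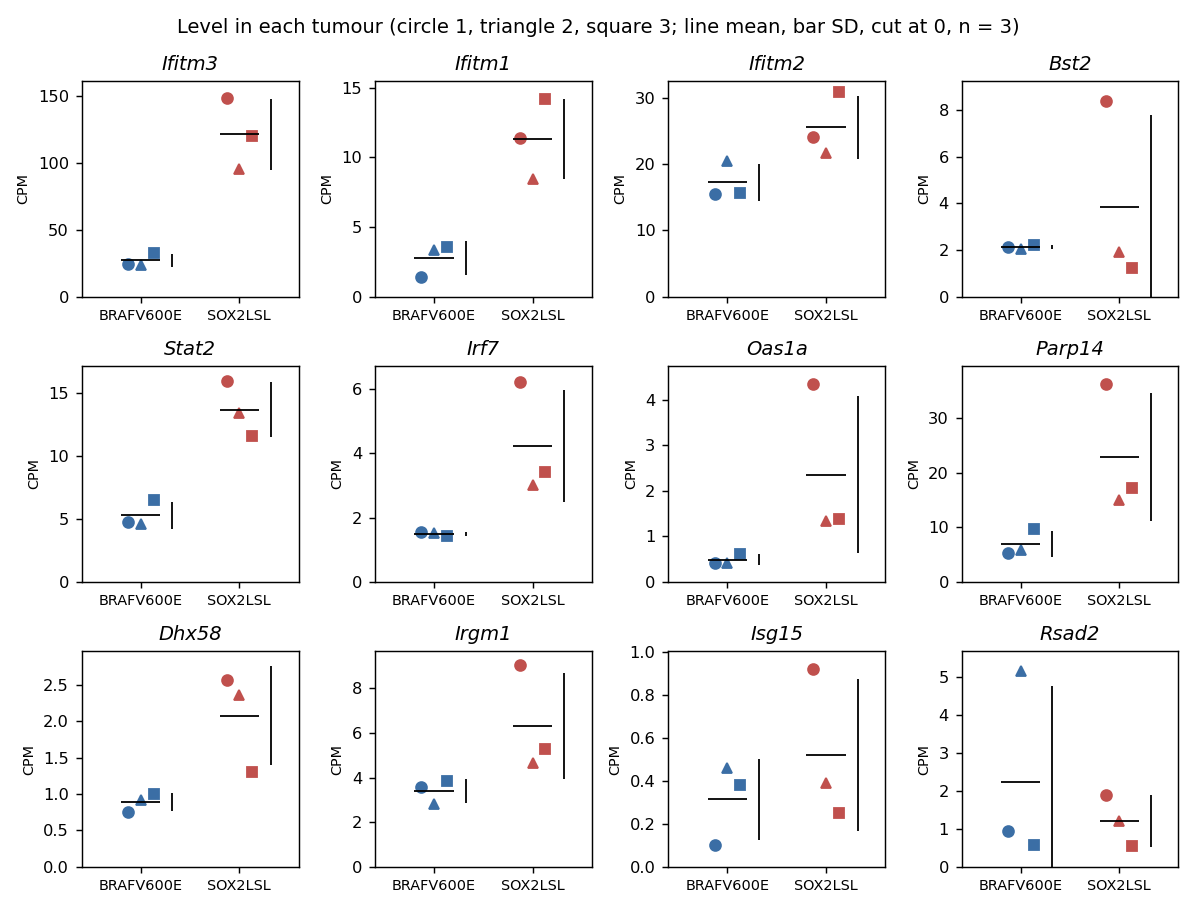
CPM (y axis, linear from 0) of 12 of the genes in each tumour of the 2 genotypes (x axis), with circles, triangles and squares for tumours 1, 2 and 3, lines for means and bars for the SD (cut at 0). Ifitm3 reads 23.7 to 33.0 CPM in BRAFV600E tumours and 96.0 to 149 CPM in SOX2LSL tumours, and in Bst2 a single SOX2LSL tumour, at 8.42 CPM, stands above the rest.

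The 2′-5′ oligoadenylate synthetases (OAS) make the small molecule that activates RNase L. The 6 members of this family had the largest median log2 fold change of the roles, 1.80. Of them, 0 were called by edgeR, and 4 were higher at an unadjusted p below 0.05 (14.5% of all genes). DESeq2 called Oas1a and Oas3 higher (10.5% of all genes). Oas1a had 0.409, 0.416 and 0.618 CPM in BRAFV600E tumours and 4.34, 1.33 and 1.37 CPM in SOX2LSL tumours. All 3 SOX2LSL tumours were above the BRAFV600E range, 1 of them far above the other two, and the log2 fold change was 2.29 (SE 0.57, edgeR adjusted p = 0.0696; DESeq2 adjusted p = 0.00459). Oas1a shares 40.9% of its 100-base stretches with Oas1g, so the reads of this pair may have been split between them. The remaining log2 fold changes were 1.77 for Oas3, 1.82 for Oas1g, 1.32 for Oas2, 1.17 for Oasl2 and 2.36 for Oasl1, the highest of all members, with edgeR adjusted p-values between 0.0911 and 0.223.

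The group around ISG15, a ubiquitin-like protein that is attached to other proteins, was split. Parp14, Parp9 and Dtx3l, genes of ADP-ribose transfer and ubiquitin ligation that lie together on chromosome 16, did not overlap between groups, while Isg15, Usp18 and Trim25 did. Over all genes, 18.2% were higher without overlap. Parp14 had 5.18, 5.87 and 9.60 CPM in BRAFV600E tumours and 36.3, 15.0 and 17.2 CPM in SOX2LSL tumours. That is a log2 fold change of 1.73 (SE 0.40, edgeR adjusted p = 0.0593; DESeq2 adjusted p = 0.00101), and without SOX2LSL tumour 1 it was 1.22 and was called (edgeR adjusted p = 0.0496). Parp9 had 1.14 (edgeR adjusted p = 0.0879) and its binding partner Dtx3l 0.85 (0.123). These neighbours share 458 bases of exon on opposite strands, and the sources do not say whether the counting used strand.

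Isg15 itself was low, at 0.102, 0.462 and 0.380 CPM in BRAFV600E tumours and 0.923, 0.389 and 0.253 CPM in SOX2LSL tumours. The ranges overlapped, and the log2 fold change of 0.77 (SE 0.72) was not called (edgeR adjusted p = 0.535). Usp18, the protease that removes ISG15 and dampens IFNAR signalling, had 0.83 (edgeR adjusted p = 0.466). Trim25, the ligase that activates RIG-I, had the smallest log2 fold change of the 3 members above 10 CPM in every tumour, with 77.5, 58.6 and 75.3 CPM against 78.5, 70.6 and 83.4 CPM. Its log2 fold change was 0.14 (SE 0.15, edgeR adjusted p = 0.591).

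Of the 4 sensors of foreign nucleic acid, edgeR called 0, and their median was 1.12 on the log2 scale. At an unadjusted p below 0.05, 2 were higher (14.5% of all genes). DESeq2 called Dhx58 and Zbp1 higher (10.5% of all genes). Dhx58, the gene of LGP2, a regulator of RNA sensing, had 0.750, 0.924 and 0.998 CPM in BRAFV600E tumours and 2.57, 2.36 and 1.30 CPM in SOX2LSL tumours. No values overlapped, and the log2 fold change was 1.23 (SE 0.36, edgeR adjusted p = 0.0985; DESeq2 adjusted p = 0.0349). Zbp1, a sensor of left-handed nucleic acid, had 1.78 (edgeR adjusted p = 0.113), Ifih1 (MDA5) 1.01 (0.223) and Ddx58 (RIG-I) 0.85 (0.337). Ddx58 was 21.3 CPM in SOX2LSL tumour 1, and the 5.53 to 8.16 CPM of the other SOX2LSL tumours lay within the 4.34 to 8.79 CPM of the BRAFV600E tumours.

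The Ifit genes, whose products bind viral RNA and are classical markers of a type I interferon response, showed no called difference. The groups overlapped in all 4, 0 were called by edgeR (0 also at an unadjusted p below 0.05 and by DESeq2), and the median log2 fold change was 0.58. Ifit1 had 0.921, 0.370 and 0.380 CPM in BRAFV600E tumours and 1.82, 0.615 and 0.867 CPM in SOX2LSL tumours. The highest BRAFV600E tumour was above both lower SOX2LSL tumours, and the log2 fold change was 0.96 (SE 0.57, edgeR adjusted p = 0.331). Ifit2 had -0.17, and Ifit3 and Ifit3b had 0.33 and 0.82. Ifit3 shares 31.7% of its 100-base stretches with Ifit3b, so the counts of these genes are uncertain.

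Both Mx genes, dynamin-like GTPases that trap viral particles, were low, and 0 were called by edgeR (0 also at an unadjusted p below 0.05). Mx1 had 0.307, 0.231 and 0.618 CPM in BRAFV600E tumours and 0.811, 0.551 and 0.397 CPM in SOX2LSL tumours, which overlap. Its log2 fold change was 0.62 (SE 0.53, edgeR adjusted p = 0.494), and that of Mx2 was 0.63 (0.556). The groups did not overlap in Mx2, but this rests on 5, 2 and 2 counts in BRAFV600E tumours against 7, 6 and 5 in SOX2LSL tumours. Mx2 was the lowest of the 42 genes per length.

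The guanylate-binding proteins and immunity-related GTPases attack the vacuoles of intracellular microbes and respond mainly to interferon gamma. Of these 6 members, edgeR and DESeq2 each called 0, and 1 was higher at an unadjusted p below 0.05 (14.5% of all genes). Their median was 0.94 on the log2 scale. Irgm1, the regulator of the family, had 3.58, 2.82 and 3.85 CPM in BRAFV600E tumours and 9.04, 4.66 and 5.27 CPM in SOX2LSL tumours. It was the member of this group without overlap, and its log2 fold change was 0.89 (SE 0.31, edgeR adjusted p = 0.134). Gbp7, Igtp, Gbp2 and Gbp3 lay between 0.90 and 1.22 with overlapping groups, and Gbp4 was at 0.07.

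Among the other members, Cmpk2 and Rsad2 are neighbours on chromosome 12 whose enzymes act on nucleotides in sequence, Rsad2 (viperin) making a chain terminator of viral RNA. Cmpk2 had 0.375, 0.0462 and 0.618 CPM in BRAFV600E tumours, of which the lowest is under 3 counts, and 0.811, 0.389 and 0.795 CPM in SOX2LSL tumours. The groups overlapped, with a log2 fold change of 0.93 (SE 0.74, edgeR adjusted p = 0.46). Rsad2 had the lower mean in SOX2LSL tumours, with 0.955, 5.17 and 0.570 CPM in BRAFV600E tumours and 1.90, 1.20 and 0.542 CPM in SOX2LSL tumours. Its log2 fold change was -0.86 (SE 0.85, edgeR adjusted p = 0.556), and without BRAFV600E tumour 2, where it was highest, it was 0.66.

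Rtp4, a chaperone of membrane receptors that interferon induces, had 1.23, 0.601 and 1.19 CPM in BRAFV600E tumours and 3.50, 1.91 and 1.66 CPM in SOX2LSL tumours. No values overlapped, and the log2 fold change of 1.22 (SE 0.43) was not called (edgeR adjusted p = 0.137). Xaf1, a gene linked to apoptosis, and Ifi44 had 1.03 and 0.27. Both were below 0 without SOX2LSL tumour 1, at -0.073 and -0.44.

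Per length, Ifitm3 and Ifitm2 had the highest levels. In CPM per kb of exon, the mean over the 6 tumours was 110 for Ifitm3, 32.7 for Ifitm2, 12.9 for Trim25, 6.45 for Ifitm1 and 3.31 for Bst2, and it fell to 0.0428 for Mx2. Ifitm3 was above Ifitm2 in every tumour, and Ifitm2 was above Trim25 in every tumour, at 23.8 CPM per kb or more against 14.5 or less. The place of Ifitm2 in this order is uncertain, since 40.9% of its exon bases overlap another annotated gene on the same strand. Trim25 was above Ifitm1 in every tumour as well, most narrowly in SOX2LSL tumour 3, at 14.5 against 12.9 CPM per kb. Bst2 and the next gene, Dtx3l, changed order between tumours. In CPM, 3 members exceeded 10 CPM in every tumour, 12 exceeded it in at least 1, and 7 stayed below 1 CPM throughout. Ifitm3 alone made up between 12.2% and 31.2% of the summed CPM of the 42 genes, so the sum mostly follows a few genes.

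**Figure D3:**
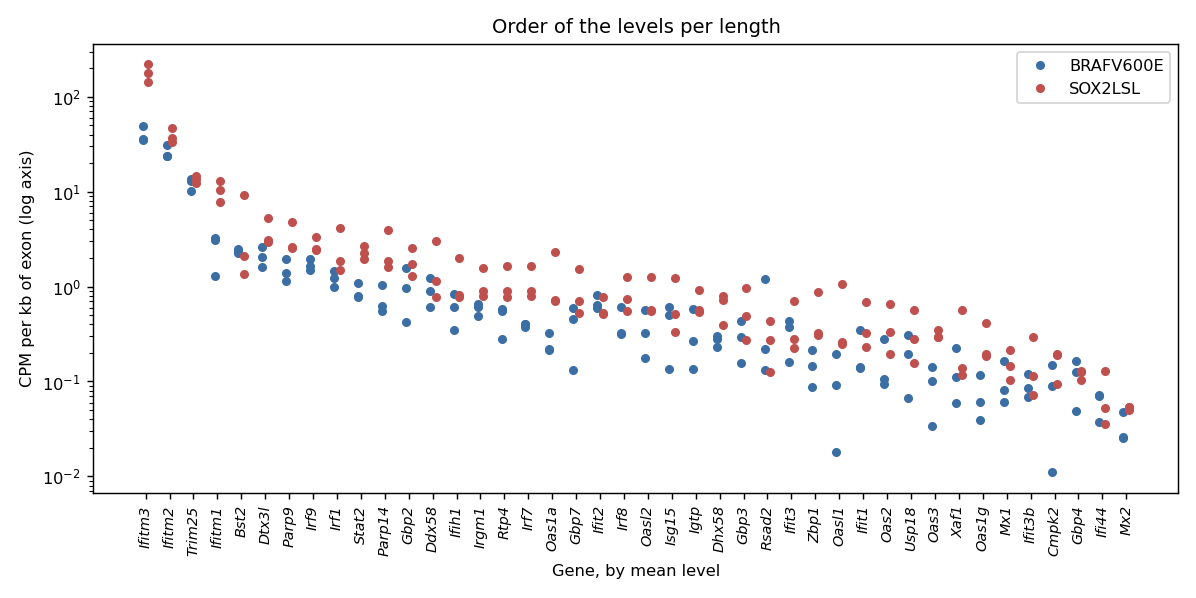
CPM per kb of exon (y axis, log axis) of the 42 genes, ordered by their mean (x axis), with 1 point per tumour, blue for BRAFV600E and red for SOX2LSL. Means fall from 110 for Ifitm3 to 0.0428 for Mx2, and most genes lie near or below 1 CPM per kb.

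The tumours differed from each other within a group as well. On the scale of log2(CPM + 1) minus each gene's mean over the 6 tumours, the median over the members was -0.31, -0.47 and -0.09 in BRAFV600E tumours 1, 2 and 3 and 0.83, 0.07 and 0.07 in SOX2LSL tumours 1, 2 and 3. SOX2LSL tumour 1 therefore lay farther from the other SOX2LSL tumours than these lay from BRAFV600E tumour 3. In 18 members its CPM was more than 2-fold above both other SOX2LSL tumours. BRAFV600E tumour 2 was the lowest of the 6 in 24 members (57.1%, against 23.4% of all genes), and BRAFV600E tumour 1 in 12 (28.6%, against 17.8%).

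**Figure D4:**
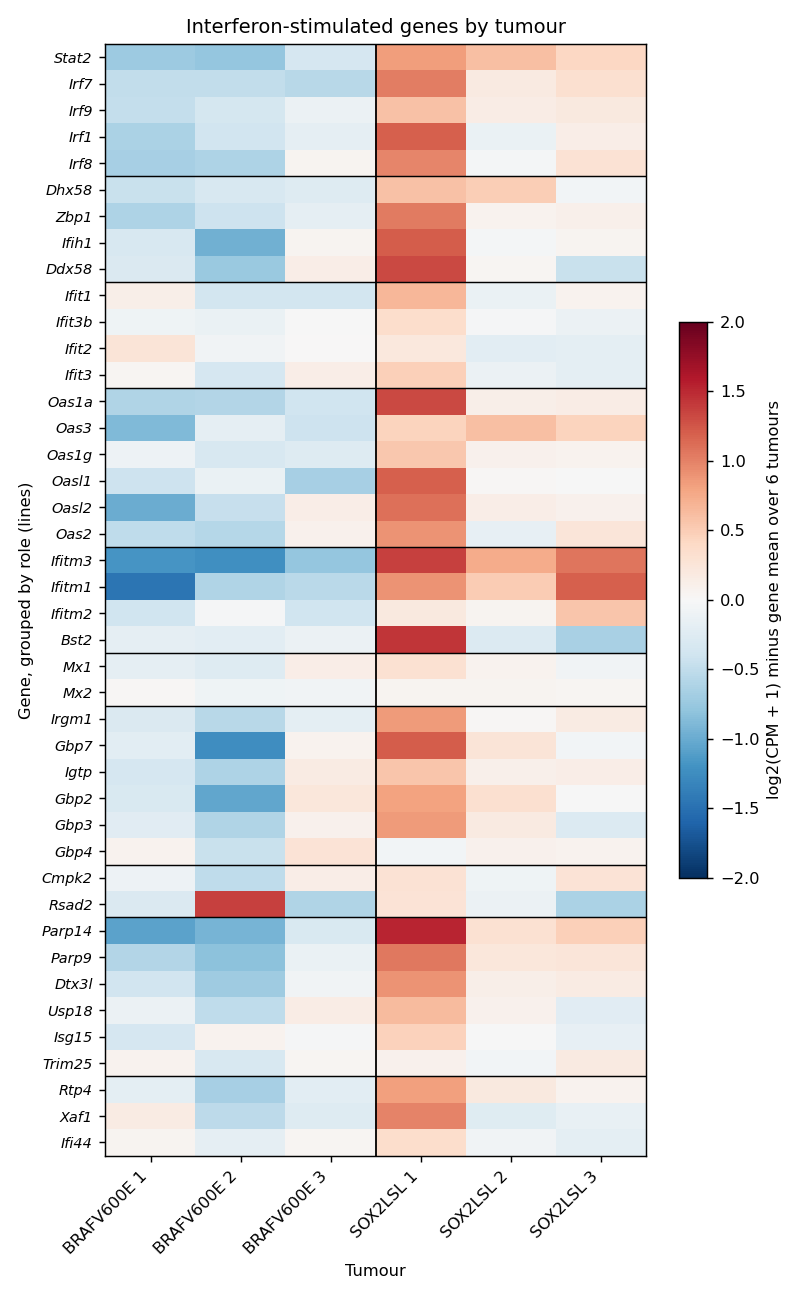
Log2(CPM + 1) minus the gene's mean over the 6 tumours (colour) for the 42 genes (rows, grouped by role) in the 6 tumours (columns). SOX2LSL tumour 1 is the highest column in 35 genes, with a median of 0.83, and BRAFV600E tumour 2 the lowest in 24, with a median of -0.47.

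Of 21 interferon ligand genes on the list, 14 had 0 counts in every tumour, Ifnb1 among them, and only Ifnk, the interferon of keratinocytes, had enough reads for a test, with a log2 fold change of 0.24 (edgeR adjusted p = 0.882). Ifng had 0.028 CPM in SOX2LSL tumour 1, which is 1 count, and 0 in the other tumours. Among the ligands not tested, Ifna13 had 4 counts in BRAFV600E tumour 2 and 0 in the other tumours. Ifnz had at most 4 counts, in SOX2LSL tumour 3. For Ifnb1, 0 counts allow a level of up to 0.0839 to 0.143 CPM, so lower levels were not detectable at this depth.

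Of 15 genes of receptors and signal transduction, edgeR called 3 higher in SOX2LSL tumours and 0 lower (2.39% and 1.51% of all genes). At an unadjusted p below 0.05, 9 were higher and 1 lower (14.5% and 11.2% of all genes). The median on the log2 scale was 0.54. Ifngr1, the ligand-binding chain of the interferon gamma receptor, had 24.4, 15.7 and 28.7 CPM in BRAFV600E tumours and 50.5, 66.9 and 75.6 CPM in SOX2LSL tumours. Here SOX2LSL tumour 1 was the lowest of its group, unlike in most of the 42 genes, and the log2 fold change was 1.49 (SE 0.25, edgeR adjusted p = 0.0308). Jak2, the kinase of that receptor, had 0.88 (edgeR adjusted p = 0.0267), and Socs3, a feedback inhibitor of JAK signalling that acts mainly on IL-6 family receptors, had 1.15 (0.0283). Each of these calls was kept in 1 of the 6 omissions of a tumour. The type I receptor chains Ifnar1 and Ifnar2 had 0.70 and 1.05 (edgeR adjusted p = 0.0687 and 0.105), and Ifngr2 had 0.54 (0.111), all without overlap. The chains of the type III receptor, Ifnlr1 and Il10rb, had -0.15 (edgeR adjusted p = 0.703) and 0.43 (0.231).

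In the list of nucleic acid sensing and interferon induction, 17 of 18 genes were tested, and the median on the log2 scale was 0.35. EdgeR called 1 higher and 0 lower (2.39% and 1.51% of all genes). At an unadjusted p below 0.05, 6 were higher and 1 lower (14.5% and 11.2% of all genes). The called gene, Ifi204, of the p200 family of DNA-binding proteins, had 1.43, 0.831 and 1.76 CPM in BRAFV600E tumours and 28.9, 16.4 and 11.2 CPM in SOX2LSL tumours. The log2 fold change was 3.81 (SE 0.45, edgeR adjusted p = 0.0138), larger than that of any of the 42 genes, and the call was kept in 4 of the 6 omissions of a tumour. A further list of 66 other interferon-stimulated genes, of which 64 were tested, had a median of 1.02, with 4 called higher by edgeR (Plscr1 1.94, Shisa5 0.95, Mndal 2.57 and Parp12 0.94; adjusted p between 0.0254 and 0.036) and 0 lower. In this list 34 genes had an unadjusted p below 0.05, all of them higher. Over all genes, 14.5% were higher at that p and 2.39% were called higher.

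Markers of other cells also differed between the groups, and the sums for leukocytes and macrophages were highest in SOX2LSL tumour 1. The summed CPM of 5 general leukocyte markers was 41.1 to 79.3 in BRAFV600E tumours and 363, 130 and 143 in SOX2LSL tumours, and 2 of the 5, Coro1a and Ptprc, were called higher by edgeR. All 5 were higher without overlap and at an unadjusted p below 0.05, and DESeq2 called all 5 higher. Their median log2 fold change was 1.59. For 8 macrophage and monocyte markers the sums were 70.2 to 160 CPM against 647, 287 and 175 CPM, with Csf1r called and all 8 at an unadjusted p below 0.05. Of these 8, 7 were higher without overlap, DESeq2 called 7 higher, and the median log2 fold change was 1.99. Over all genes, 2.39% were called higher and 14.5% were higher at an unadjusted p below 0.05. DESeq2 called 10.5% of all genes higher, and 18.2% were higher without overlap. The 7 dendritic cell markers summed to 7.39 to 8.27 CPM against 33.3, 7.61 and 15.6 CPM, and the 9 markers of T and NK cells to 1.80 to 6.32 CPM against 6.97, 4.83 and 9.35 CPM, with 0 called by edgeR in both lists (1 and 2 at an unadjusted p below 0.05). B cell markers were at or near the limit of the depth, with sums of at most 0.831 CPM, and the 5 neutrophil markers summed to 333 to 1209 CPM against 387, 1957 and 1351 CPM, with 0 called by edgeR (3 at an unadjusted p below 0.05). The summed CPM of the 42 genes was 180 to 240 CPM in BRAFV600E tumours and 540, 336 and 386 CPM in SOX2LSL tumours.

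The summed keratinocyte markers were lower in SOX2LSL tumours. The 8 markers summed to 82225 to 122865 CPM in BRAFV600E tumours and 13002, 45334 and 42256 CPM in SOX2LSL tumours, mostly through Krt1 and Krt10, keratins of differentiated layers, which were themselves not called (edgeR adjusted p = 0.149 and 0.0935), while Epcam was called higher. The log2 fold change was below 0 in 4 of the 8 and above 0 in the other 4, Epcam (3.67), Cdh1 (0.35), Krt5 (0.29) and Trp63 (0.10). Trp63 and Krt5, which mark the squamous epithelium, were present in every tumour, as the labelled tissue asks. Fibroblast markers summed to 614 to 3690 CPM against 6196, 2769 and 3551 CPM. The 12 skeletal muscle markers summed to 2.26 to 12.9 CPM against 3000, 3085 and 766 CPM, with 9 of them called higher (2.39% of all genes). The 5 endothelial markers summed to 123 to 130 CPM against 145, 118 and 139 CPM, and their members differed, with Kdr at a log2 fold change of -0.51 and Pecam1 at 0.32, both without overlap and not called (edgeR adjusted p = 0.0976 and 0.184). The part of leukocytes, stroma or muscle in the differences of the 42 genes was not tested.

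**Figure D5:**
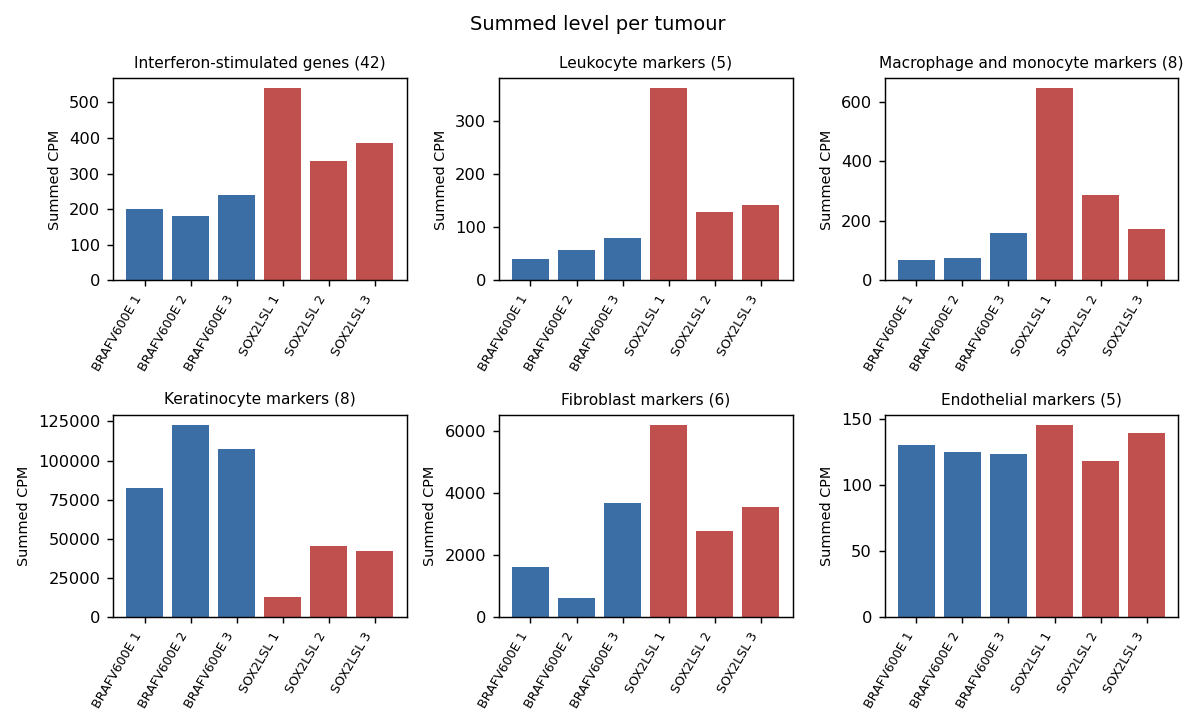
Summed CPM (y axis, linear from 0) of the 42 interferon-stimulated genes and of marker lists of 5 cell types in each tumour (x axis), blue for BRAFV600E and red for SOX2LSL. SOX2LSL tumour 1 has the highest bar of the 42 genes (540 CPM), the leukocyte markers (363 CPM) and the macrophage markers (647 CPM) and the lowest of the keratinocyte markers (13002 CPM).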

How the data were processed

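Total RNA of bulk mouse skin tumours was depleted of ribosomal RNA and sequenced as paired reads of 150 bp. Per the submitters' processing notes and the paper's methods, the authors checked reads with FastQC 0.11.8, trimmed them with Trim Galore, aligned them to GRCm38 with HISAT2 2.1.0 and counted them with featureCounts (Subread 1.6.3). They deposited raw counts per gene, without normalisation or pooling of tumours. Settings for strand and multimapping reads are not given in the sources used here.

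Each of the 7 columns of the table bears the name of a mouse. The prefix of a column name and the genotype of its mouse in the paper's Source Data put 6 columns in groups, 3 per genotype. The labels list 4 Ivl:BRAFV600E and 3 Ivl:BRAFV600E-SOX2LSL tumours, and 1 column, whose mouse is not in the Source Data, was not used. The name of that column begins with the same prefix as the 3 SOX2LSL columns, so the prefix alone does not give the genotype. The comparison was planned for 4 against 3 and was run on 3 against 3. Replicate numbers used here only name the tumours.

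The 24433 genes that reached 5 reads in 1 or more tumours were tested, library sizes were scaled by TMM, and groups were compared with edgeR 4.0.16 (R 4.3.3, quasi-likelihood test, genotype as the only factor, Benjamini-Hochberg adjustment over all genes, threshold 0.05). The standard error of a log2 fold change is its size divided by the square root of the F statistic. The biological coefficient of variation was 0.372. The alternatives were DESeq2 1.42.0, limma 3.58.1 (voom), DESeq2's size factors, upper-quartile scaling, a fit without the 10 most counted genes, no filter on low counts, edgeR's filterByExpr, sex as a covariate and each tumour left out. The script was tested on simulated counts.

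The members, the lists of the pathway and the marker lists were chosen with earlier results of these data known. Given in full were the members that edgeR called, the member with the smallest p of each role and the 5 with the highest mean CPM per kb; the others are given by ranges and counts. Of the pathway lists, at most 5 called genes each are named, with the interferon receptor chains, Ifnb1 and Ifng. A further gene under this rule is not reported here. Gene positions and exon lengths come from GENCODE M21 (GRCm38) and promoters from RefSeq (GRCm38.p6). Protein sequences were not used here.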

Additional observations from a re-analysis of the deposited data

How the results depend on the processing

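No paired analysis was possible because the columns of the table are named by mouse and carry no replicate number. The count of members called higher was 11 with DESeq2 and 3 by edgeR, where 10.5% and 2.39% of all genes were called higher. It was 6 with limma voom and 6 without a filter on low counts, and the share of all genes called higher is not given for these. Under any alternative, 0 members were called lower. The count called higher ran from 0 to 4 when each tumour was left out. Calls over all genes, in both directions together, were 954 by edgeR, 3653 with DESeq2, 2142 with limma voom, 1759 without the filter and 228 with sex as a covariate. They were 22 to 1575 without 1 tumour. The median log2 fold change of the members was between 0.60 and 1.32 over the fits without 1 tumour, the lowest without SOX2LSL tumour 1, and between 0.68 and 1.01 over the others. Members that were not called changed sign as follows. With limma voom, Ifit3 had -0.15, Ifi44 -0.28 and Bst2 -0.15. With sex as a covariate, Ifit3 had -0.019, Ifi44 -0.10 and Gbp4 -0.011, and Gbp4 had -0.027 with upper-quartile scaling. Over the fits without 1 tumour, the lowest value came without SOX2LSL tumour 1 for Ifit3 (-0.35 to 0.61), Ifi44 (-0.44 to 0.59), Bst2 (-0.44 to 1.28), Xaf1 (-0.073 to 1.67) and Rsad2 (-1.34 to 0.66), and without BRAFV600E tumour 2 for Gbp4 (-0.28 to 0.42), where Rsad2 was highest. The causes were not tested. Precision is limited by the number of tumours for most members, and by depth for the 6 members with a tumour at or under 3 counts.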
